A study of Mus musculus with 9 samples.

Results

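Gene expression after 14 days of nutrient and oxygen deprivation was compared with that at the start of the culture in the mouse pancreatic tumor cell line 6620c1. The comparison used 6 of the 9 RNA sequencing samples, 3 from day 0 and 3 from day 14. The 3 samples of day 2 entered the choice of genes tested, the scalings and the estimate of the spread. They also entered the grouping of genes by level and the values given beside single genes. Per the labels, all 9 samples came from one cell line without further treatment, and the deprivation medium was DMEM, a standard culture medium, in which amino acids were held to 20% of their usual concentration, glucose to 2.5 mM and fetal calf serum to 0.5%. The labels list this same medium for day 0, and they give neither the oxygen level nor the medium before day 0. The comparison has no undeprived samples of day 14, so the effects of deprivation and of the days spent in culture cannot be told apart. The labels do not say whether the 3 samples of a day came from separate cultures, so p-values here reflect sample-to-sample spread alone, and that spread may be technical.

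Cells that run short of oxygen stabilise hypoxia-inducible factors (HIFs), transcription factors that otherwise are marked for degradation by oxygen-dependent prolyl hydroxylases. HIFs switch on genes for glucose uptake, glycolysis, vessel growth and mitophagy (the removal of mitochondria by autophagy). A shortage of amino acids activates the kinase GCN2, which slows protein synthesis while raising translation of the transcription factor ATF4, and low nutrient supply lowers the activity of mTORC1, the kinase complex that promotes ribosome production and cell growth. Pancreatic tumors are known for dense tissue with few working vessels, in which tumor cells meet such conditions.

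Values were TPM, a level corrected for transcript length and expressed relative to the total of the sample. In all, 12693 of the 24493 genes in the table had at least 1 TPM in at least 3 of the 9 samples and were tested. The 3 day 0 samples resembled each other closely (Pearson's r across genes 0.975 to 0.979 on log2 values), the 3 day 14 samples a little less (0.947 to 0.961), and samples of different days less again (0.885 to 0.919). These correlations are across genes, which are not independent replicates. Markers of ductal or tumor epithelium were detected, 10 of 10 at 1 TPM or more in at least 1 sample, with a summed level of 11060 to 11700 TPM at day 0 and 7062 to 8910 TPM at day 14. The keratins Krt7, Krt8, Krt18 and Krt19 made up most of that sum. Krt7, Krt8 and Krt18 were lower at day 14, whereas Epcam, Cdh1, Sox9, Cldn7 and Cldn4 had higher values than at day 0. Cldn4 was near the floor, at 0.328, 0.445 and 0 TPM at day 0 and 1.99, 0.85 and 1.18 TPM at day 14. Krt19 and Muc1 overlapped between the days. Markers of lymphocytes (0 of 9), islet cells (1 of 9), endothelial cells (1 of 9) and fibroblasts (2 of 12) were at or near 0. Summed levels for lymphocytes were 0.4353 to 0.7362 TPM at day 0 and 1.499 to 2.345 TPM at day 14. Islet cell sums were 0 to 0.2709 and 0.4692 to 2.259 TPM, and endothelial sums 0.827 to 1.58 and 1.945 to 3.09 TPM. Fibroblast sums overlapped between the days, at 1.19 to 3.675 and 2.131 to 3.489 TPM. Whether such trace signal had a part in the rises of genes at low levels was not tested. Of the macrophage markers 4 of 12 were detected (Cd14, Mrc1, Cd68 and Csf1r), with a summed level of 81.1 to 93.6 TPM at day 0 and 89.6 to 152 TPM at day 14, and of the acinar markers 3 of 13, at 1.54 to 1.74 and 7.48 to 10.1 TPM. A single microRNA row, Mir6236, held 8.27 to 11.3% of all TPM at day 0 and 11 to 13.7% at day 14, and its part in the levels of other genes was not tested beyond the scalings below. In bulk samples such as these, fewer cells of a kind and less RNA per cell cannot be told apart.

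Long deprivation was accompanied by higher levels of oxygen-response, amino acid-response, autophagy and clock genes and by lower levels of cell division, ribosome production, proteasome and mitochondrial translation genes. At an adjusted p under 0.05 in limma, a linear model fitted across all genes on log2(TPM + 1), 6990 of the 12693 genes (55.1%) differed between the days. Of these, 4601 (36.2% of the genes tested) were higher and 2389 (18.8%) lower at day 14. A change of at least 2-fold was seen in 1715 genes that were higher (13.5%) and 604 that were lower (4.76%). In 8448 genes (66.6%) the 3 values of one day lay entirely above those of the other. With more than 1 gene in 2 called, a gene list has to be read against these shares.

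The balance of higher and lower genes depended on the scaling between samples. With TPM as deposited, 65.8% of the genes called were higher at day 14 and the median log2 fold change of all genes was 0.22. With median-of-ratios scaling, which sets the typical gene to no change, the median was 0.02 and 48.6% of the genes called were higher (3458 higher and 3651 lower). With quantile normalization, which gives every sample the same distribution, the median was -0.02 and 45.8% were higher (2843 higher and 3363 lower). A log2 fold change of 0.22 is therefore that of the typical gene on the scale used below, and changes near it may switch sides under another scaling.

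**Figure D1:**
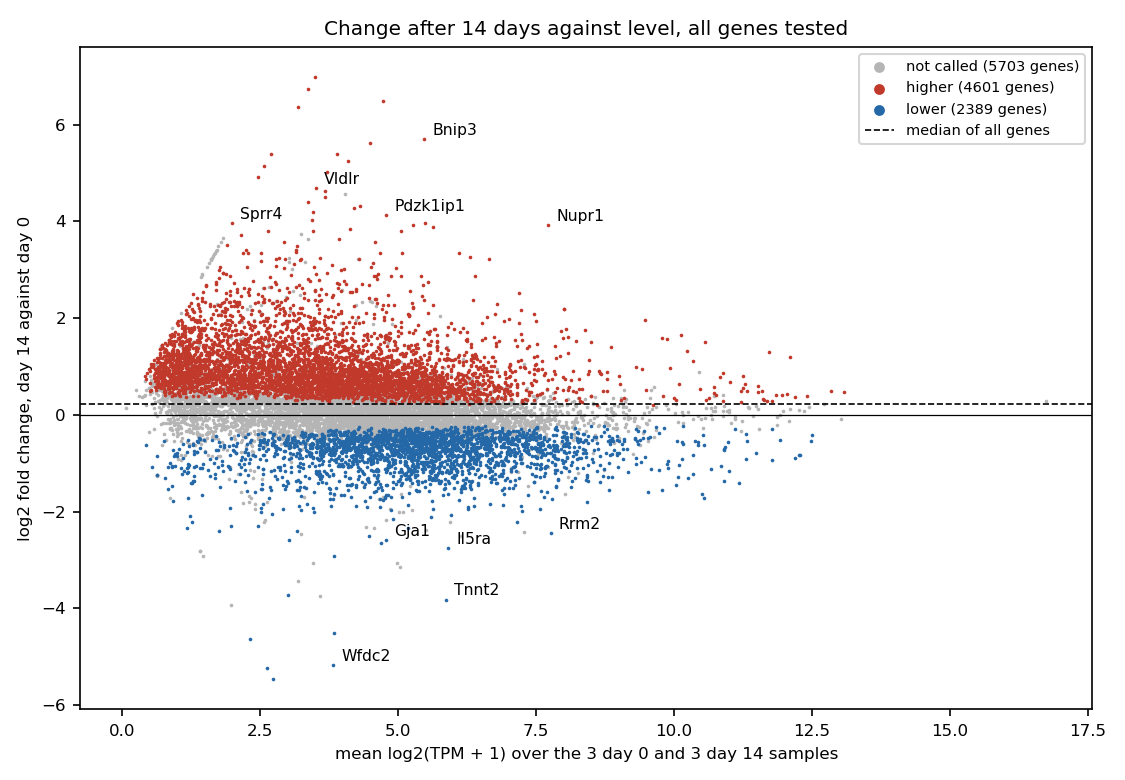
Change and level of all 12693 genes tested. Each point is a gene, the horizontal axis its mean log2(TPM + 1) over the 3 day 0 and 3 day 14 samples and the vertical axis the log2 fold change at day 14 against day 0. Red points were called higher (4601 genes), blue points lower (2389 genes) and grey points neither, and the dashed line is the median of all genes, 0.22. Points toward the left lie mostly above 0 and points toward the right more often below.

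Genes at low levels rose more often and genes at high levels fell more often. Below a mean of 5 TPM over all 9 samples, 51.7% of 2676 genes were higher and 6.46% lower, with a median log2 fold change of 0.58. From 5 to 20 TPM the shares were 38.9% and 14.0% of 4121 genes, and from 20 to 100 TPM they were 29.3% and 25.1% of 4608 genes. At 100 TPM or more, 20.6% of 1288 genes were higher and 37.3% lower, with a median of -0.17. The same order held with median-of-ratios scaling, where the medians of these 4 groups ran from 0.43 down to -0.40. Each sample held more genes at 1 TPM or above at day 14 (12595 to 12717) than at day 0 (11569 to 11633). Below 1 TPM in every day 0 sample and at 1 TPM or more in every day 14 sample were 562 genes, and 45 showed the reverse. Long non-coding RNAs were higher in 303 and lower in 12 of 541 genes, against 4112 and 2315 of 11461 protein-coding genes, where RefSeq gave the class. These classes were not matched for level, so the part of level in this difference was not tested.

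The 15 genes with the largest rises were chosen among those with a mean of at least 10 TPM at day 0 or day 14, values that did not overlap between the days, and the same call under median-of-ratios scaling. Since that choice used the contrast itself, their values are a description. Bnip3, a mitophagy receptor on the outer mitochondrial membrane and a classical HIF target, headed them. It stood at 7.5, 4.7 and 3.76 TPM at day 0 and 326, 300.0 and 325 TPM at day 14. That was a log2 fold change of 5.70 with an SE of 0.19 (limma, adjusted p = 1.22e-06), and each day 14 value lay far above all day 0 values, although the day 2 values were higher still, at 629.8, 651 and 529.6 TPM. Car9, a carbonic anhydrase on the cell surface that helps regulate pH in oxygen-poor tumors, stood at 1.86, 0.938 and 2.48 TPM at day 0 and 55.8, 66.2 and 57.1 TPM at day 14, a log2 fold change of 4.50 with an SE of 0.20 (limma, adjusted p = 3.71e-06). Ankrd37, a small ankyrin-repeat protein gene induced by HIF, stood at 4.97, 3.5 and 1.78 TPM at day 0 and 94.2, 67.4 and 80.6 TPM at day 14. Egln3, one of the prolyl hydroxylases that mark HIF for degradation, stood at 9.75, 6.84 and 7.47 TPM at day 0 and 106, 126 and 141 TPM at day 14. Slc16a3, which exports lactate, stood at 18.1, 12.8 and 7.08 TPM at day 0 and 158, 203 and 209 TPM at day 14. The log2 fold changes of these 5 oxygen-response genes were 3.80 to 5.70, and their values did not overlap between the days because the rule required it. Adm, which encodes the vessel-dilating peptide adrenomedullin, was under 1 TPM in all day 0 samples and varied widely afterwards. It stood at 0.13, 0.0748 and 0.479 TPM at day 0 and 45.1, 5.69 and 12.4 TPM at day 14 after 202, 66.2 and 40.6 TPM at day 2.

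The promoter of Bnip3 is shown because it holds the core of the HIF binding site. The window runs from 250 bases before to 50 bases after the gene's start on the minus strand at chr7:138909457-138909756 (GRCm38.p6, RefSeq). Capitals mark ACGTG on either strand, here a pair of overlapping matches that together read as a palindrome.
Bnip3 promoter: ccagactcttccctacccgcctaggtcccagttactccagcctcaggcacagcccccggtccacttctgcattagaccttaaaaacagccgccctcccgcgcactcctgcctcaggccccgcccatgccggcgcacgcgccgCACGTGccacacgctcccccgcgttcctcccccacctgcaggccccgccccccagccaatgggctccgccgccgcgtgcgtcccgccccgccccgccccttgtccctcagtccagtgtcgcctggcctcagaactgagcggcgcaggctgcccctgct

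Amino acid and stress response genes made up another share of the largest rises. Vldlr, a lipoprotein receptor that ATF4 is known to induce, stood at 1.67, 1.11 and 1.0 TPM at day 0 and 50.3, 58.6 and 62. TPM at day 14. Its log2 fold change was 4.69 (limma, adjusted p = 1.42e-06). Vldlr is placed here as a member of the list of ATF4 and CHOP target genes, and whether low oxygen also raised it was not tested. Trib3, a pseudokinase that restrains ATF4 and AKT, stood at 6.37, 2.97 and 1.98 TPM at day 0 and 60.1, 95. and 118 TPM at day 14. Chac1, an enzyme that breaks down glutathione, stood at 6.83, 2.26 and 2.93 TPM at day 0 and 47.6, 63.1 and 92. TPM at day 14. The log2 fold changes of these 3 genes were 3.83 to 4.69. Nupr1, a chromatin protein induced by stress and first described in the inflamed pancreas, was the most abundant of the 15 genes. It stood at 69.5, 49. and 43.2 TPM at day 0 and 929.6, 686 and 854 TPM at day 14, after 318, 404 and 358 TPM at day 2, a log2 difference of 1.19 from day 2 (limma, adjusted p = 0.00179). Adm2, a peptide hormone gene related to adrenomedullin, stood at 1.38, 1.26 and 1.11 TPM at day 0 and 38.1, 42.7 and 61.9 TPM at day 14.

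The promoter of Vldlr is shown for the composite site that ATF4 and C/EBP proteins bind together. The window lies on the plus strand at chr19:27216770-27217069 (GRCm38.p6, RefSeq), and capitals mark the single match to TGATGNAA, which is on the opposite strand of the printed one.
Vldlr promoter: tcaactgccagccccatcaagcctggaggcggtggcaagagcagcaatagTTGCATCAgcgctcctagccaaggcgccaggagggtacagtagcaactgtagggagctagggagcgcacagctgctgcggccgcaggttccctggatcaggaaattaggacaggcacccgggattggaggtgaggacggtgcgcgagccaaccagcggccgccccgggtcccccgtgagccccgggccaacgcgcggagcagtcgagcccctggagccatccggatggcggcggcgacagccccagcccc

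The other 4 of the 15 belonged to neither group. Pdzk1ip1, a small membrane protein of epithelia, stood at 5.72, 5.9 and 4.97 TPM at day 0 and 152, 174 and 55.4 TPM at day 14, while its day 2 values, 7.82, 3.35 and 6.12 TPM, were near those of day 0. Aldh1a1, a retinaldehyde dehydrogenase used as a marker of progenitor-like tumor cells, stood at 9.52, 7.64 and 9.7 TPM at day 0 and 167, 163 and 121 TPM at day 14, with 12.5, 7.68 and 15.7 TPM at day 2. Sprr4, a small proline-rich protein of the cornified envelope, was listed at 0 in all day 0 and day 2 samples and at 16.4, 8.83 and 21.4 TPM at day 14. All 3 were high at day 14 and not at day 2, with a log2 difference of 4.14 from day 2 (limma, adjusted p = 0.000138) for Pdzk1ip1 and of 3.58 (limma, adjusted p = 1.49e-05) for Aldh1a1. Stbd1, which tethers glycogen to membranes for delivery to the lysosome, stood at 0.884, 0.68 and 0.491 TPM at day 0 and 19.7, 23.7 and 23.5 TPM at day 14.

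**Figure D2:**
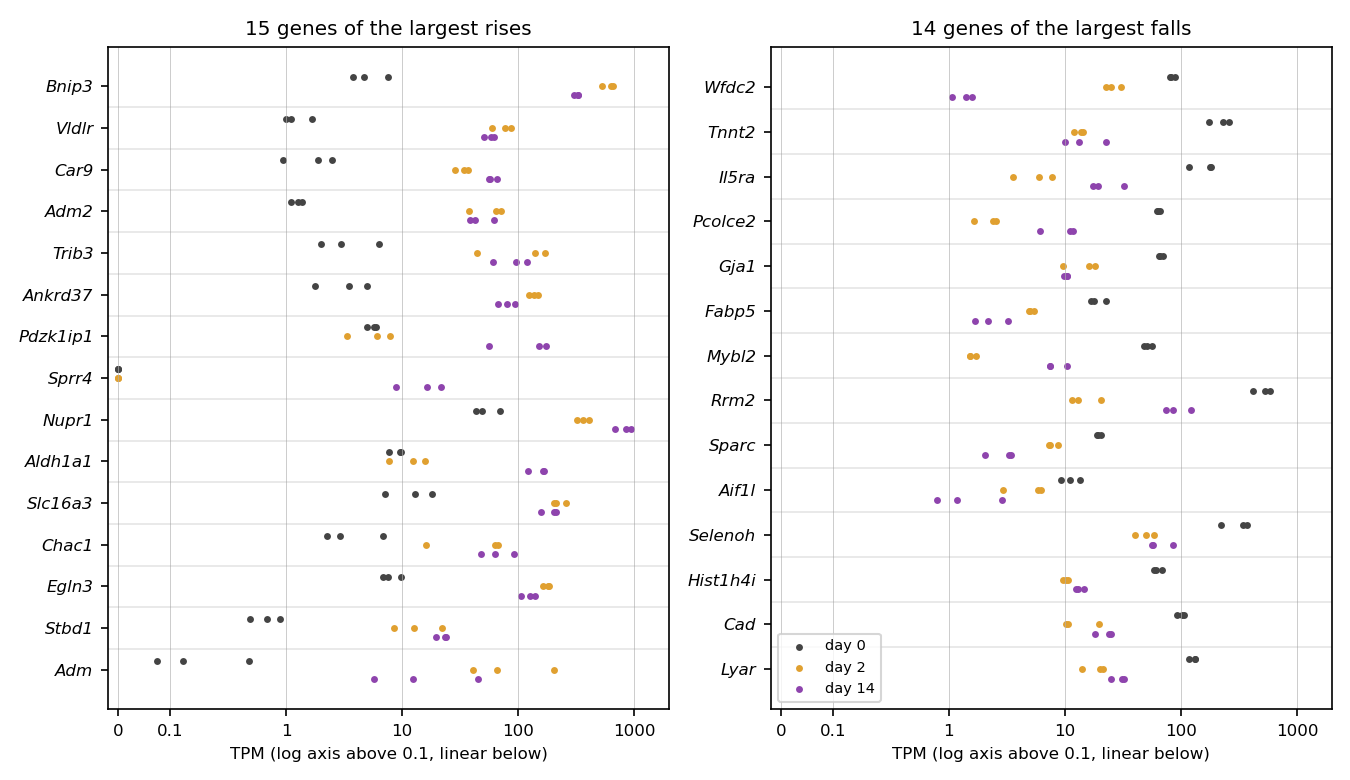
TPM in every sample for the 15 genes with the largest rises (left) and 14 of those with the largest falls (right) under the rule for named genes. The horizontal axis is TPM, on a log scale above 0.1, and each point is 1 sample of day 0 (grey), day 2 (orange) or day 14 (purple). By that rule, no purple point overlaps the grey ones of its gene. Pdzk1ip1, Sprr4 and Aldh1a1 have day 2 points near or among those of day 0.

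Of the genes with the largest falls by the same rule, 14 are given. Wfdc2, a secreted protease inhibitor-like protein of epithelia, had the largest fall. It stood at 81.2, 81.4 and 89.3 TPM at day 0 and 1.07, 1.59 and 1.4 TPM at day 14, with 22.4, 25.1 and 30.5 TPM at day 2, a log2 fold change of -5.18 with an SE of 0.14 (limma, adjusted p = 3.38e-07) between day 14 and day 0. Tnnt2, the heart form of troponin T, stood at 229, 258 and 173 TPM at day 0 and 13.1, 10. and 22.8 TPM at day 14. The interleukin receptor gene Il5ra stood at 116, 178 and 182 TPM at day 0 and 19.3, 17.4 and 32. TPM at day 14. For Il5ra the day 2 values, 3.6, 6.03 and 7.67 TPM, were lower than those of day 14. Among genes of the cell's surroundings, Sparc, a collagen-binding matrix protein, stood at 19.4, 18.8 and 20.3 TPM at day 0 and 2.06, 3.41 and 3.32 TPM at day 14. Pcolce2, which helps process procollagen, stood at 61.7, 66. and 63. TPM at day 0 and 11.8, 6.15 and 11.1 TPM at day 14. Gja1, a gap junction protein, stood at 64.2, 65.5 and 70. TPM at day 0 and 9.87, 10.4 and 10.4 TPM at day 14. The rule required every day 14 value of these genes to be below every day 0 value.

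Genes of DNA synthesis and growth made up much of the rest. Rrm2, the small subunit of ribonucleotide reductase, which makes the building blocks of DNA, stood at 416, 529 and 587 TPM at day 0 and 84.5, 74.9 and 122 TPM at day 14, a log2 fold change of -2.45 with an SE of 0.24 (limma, adjusted p = 7.28e-05). Its day 2 values of 20.3, 13.1 and 11.5 TPM were lower than those of day 14. Mybl2, a transcription factor of dividing cells, stood at 47.8, 51.1 and 56.8 TPM at day 0 and 7.5, 7.42 and 10.4 TPM at day 14. Cad, the enzyme that starts pyrimidine synthesis, stood at 91.8, 106 and 102 TPM at day 0 and 18.2, 24.2 and 25. TPM at day 14. Lyar, a nucleolar protein, stood at 117, 132 and 131 TPM at day 0 and 24.9, 30.9 and 32. TPM at day 14, and Selenoh, a nucleolar selenoprotein, at 222, 373 and 344 TPM at day 0 and 56.9, 56.1 and 85.3 TPM at day 14. The fatty acid carrier Fabp5 stood at 17.8, 16.6 and 22.8 TPM at day 0 and 3.26, 1.7 and 2.17 TPM at day 14 and the actin-binding gene Aif1l at 9.22, 11.1 and 13.4 TPM at day 0 and 0.788, 1.18 and 2.85 TPM at day 14. Hist1h4i, a replication-dependent histone, stood at 68.2, 58.1 and 60.5 TPM at day 0 and 14.5, 12.9 and 12.5 TPM at day 14, but histone genes have near-identical copies among which the quantification may have split reads. Of the 15 rises, 9 differed between day 14 and day 2 in limma (5 higher and 4 lower at day 14). Of the 14 falls 11 did (7 higher and 4 lower). Among all genes tested 31.2% did, but the named genes were chosen partly by their day 14 values. The shares are therefore not a like comparison.

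Members of 44 gene lists were then counted. HIF target genes were higher in 26 of 30, lower in 1 and not called in 3, with a median log2 fold change of 2.49 against 0.22 over all genes. Among signals to other cells, Vegfa, the main growth factor of blood vessels, stood at 24.8, 22.6 and 26.1 TPM at day 0 and 272, 207 and 259 TPM at day 14, a log2 fold change of 3.27 with an SE of 0.15 (limma, adjusted p = 3.71e-06). Among the oxygen sensors, Egln1 went from 53.1 ± 3.3 to 119 ± 9.25 TPM (mean ± SD, n = 3 a day), in addition to Egln3 above. Pdk1, a kinase that shuts off pyruvate dehydrogenase, stood at 11.4, 9.37 and 8.9 TPM at day 0 and 75.7, 84.1 and 76.2 TPM at day 14, and the glucose transporter Slc2a1 at 90.7, 86.6 and 81.5 TPM at day 0 and 243, 223 and 235 TPM at day 14. P4ha1 and Plod2, collagen-modifying enzymes that use oxygen, went from 14.9 ± 1.99 to 114 ± 10.6 TPM and from 6.78 ± 0.953 to 44.6 ± 3.67 TPM. The 3 members not called were Pfkfb4 (log2 fold change 0.38), Hilpda (0.34) and Car12 (-0.44). The 1 lower member was the annexin Anxa8, at 186, 163 and 166 TPM at day 0 and 88., 60.5 and 58. TPM at day 14, which is not a usual member of HIF target lists.

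Glycolysis enzymes were higher in 12 of 16 and lower in 0, with a median of 1.05 (11 higher and 1 lower under median-of-ratios scaling). The rises were uneven along the pathway. Aldoc, an aldolase of low abundance at day 0, went from 3.12 ± 1.72 to 37.2 ± 12.2 TPM (SD, n = 3). The phosphofructokinase genes Pfkp and Pfkl went from 12.4 ± 2.69 to 56.6 ± 7.57 TPM and from 64. ± 10.5 to 254 ± 22.4 TPM, with log2 fold changes of 2.12 and 1.98, while Pfkm was not called (0.62). Among the abundant enzymes Pgk1 stood at 607, 626 and 661 TPM at day 0 and 1704, 2167 and 2139 TPM at day 14, a log2 fold change of 1.66 with an SE of 0.10 (limma, adjusted p = 1.2e-05), and Aldoa went from 897 ± 121 to 2538 ± 38. TPM. Gapdh was not called and stood at 9451, 8771 and 7844 TPM at day 0 and 7622, 8419.6 and 8341 TPM at day 14, with overlapping values. The last enzyme of the pathway, Pkm, was not called either (log2 fold change 0.18). Glycogen enzymes were higher in 6 and lower in 1 of 9 (5 and 2 under median-of-ratios scaling, 4 and 1 under quantile normalization), led by glycogen synthase Gys1, which stood at 16.1, 15.7 and 14.3 TPM at day 0 and 54.6, 55. and 62.7 TPM at day 14, and Pgm2, which went from 43.2 ± 3.87 to 129 ± 6.51 TPM. The lower member was glycogenin, Gyg (-0.47), a call lost without replicate 2 or 3 of day 0 or replicate 1 or 2 of day 14 (limma, adjusted p up to 0.072).

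ATF4 and CHOP target genes were higher in 24 of 30 and lower in 0, with a median of 2.13 (23 higher and 1 lower under median-of-ratios scaling). Among the transcription factors, Ddit3, which encodes CHOP itself, stood at 25.3, 20.4 and 16.7 TPM at day 0 and 338, 129 and 234 TPM at day 14, a log2 fold change of 3.34 with an SE of 0.37 (limma, adjusted p = 0.000124). Atf5 went from 31.8 ± 3.6 to 317 ± 95.5 TPM and Atf3 from 7.61 ± 2.18 to 39.1 ± 6.39 TPM, and Atf4, which is regulated mostly at translation, from 291 ± 11.7 to 549 ± 68.1 TPM. Asns, the enzyme that makes asparagine, stood at 85.6, 72. and 82.5 TPM at day 0 and 175, 255 and 295 TPM at day 14. The serine pathway was divided: Psph, its last enzyme, went from 30.7 ± 2.57 to 89.2 ± 36.7 TPM and was higher, whereas Phgdh, its entry enzyme, was not called and stood at 832, 905 and 922 TPM at day 0 and 429, 591 and 889 TPM at day 14. Psat1 and Shmt2 were not called either, with log2 fold changes of 0.26 and -0.22. Gdf15, a secreted stress cytokine, went from 3.51 ± 2.07 to 31.7 ± 12.4 TPM. Ppp1r15a, whose product restores protein synthesis after stress, went from 17.6 ± 1.28 to 104 ± 36.5 TPM.

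Amino acid transporters were higher in 8 and lower in 1 of 21, with a median of 0.28, near that of all genes (7 higher and 3 lower under median-of-ratios scaling and under quantile normalization). Slc6a9, a glycine transporter, stood at 10.5, 6.57 and 7.28 TPM at day 0 and 43.3, 76.7 and 81.3 TPM at day 14, a log2 fold change of 2.87 with an SE of 0.27 (limma, adjusted p = 5.49e-05). Slc7a11, which takes up cystine, went from 1.62 ± 0.241 to 16.1 ± 6.08 TPM and Slc1a4, a carrier of small neutral amino acids, from 11.1 ± 1.86 to 56.8 ± 5.68 TPM. Slc7a5, the main importer of leucine, was not called and stood at 129, 126 and 135 TPM at day 0 and 90.9, 113 and 125 TPM at day 14. The aminoacyl-tRNA synthetases, which charge tRNAs, split into 10 higher and 4 lower of 20 (6 and 5 under median-of-ratios scaling). Cars, Lars and Sars were higher, with log2 fold changes of 1.13, 0.91 and 0.90, and Farsa, Hars and Kars were lower, with -0.96, -0.92 and -0.87.

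Insulin signalling genes and targets of FOXO, the transcription factors that insulin keeps inactive, were higher in 18 of 23 and lower in 1, with a median of 1.17. Gadd45a, a growth arrest gene, stood at 10.7, 9.42 and 9.59 TPM at day 0 and 74.9, 82.9 and 111 TPM at day 14, a log2 fold change of 3.03 with an SE of 0.28 (limma, adjusted p = 5.38e-05). Trp53inp1, a stress protein with a role in autophagy, went from 0.524 ± 0.231 to 14.7 ± 3.49 TPM and Pik3ip1, an inhibitor of the kinase PI3K, from 1.05 ± 0.261 to 6.89 ± 2.31 TPM. The receptors Insr and Igf1r were higher, going from 5.76 ± 0.211 to 15.3 ± 1.47 TPM and from 14.2 ± 0.938 to 26.5 ± 3.42 TPM, and so was Foxo3 itself (1.67). Igfbp4 was lower (-0.61), a call lost under quantile normalization (limma, adjusted p = 0.117), with no filter on low values, with no variance trend, and without any 1 of the day 0 samples, replicate 3 of day 2 or replicate 1 or 2 of day 14 (up to 0.131). Of the mTORC1 brakes and nutrient sensors 13 were higher and 5 lower of 27 (10 and 7 under median-of-ratios scaling, 8 and 7 under quantile normalization). Sestrin genes, whose products signal amino acid shortage to mTORC1, were among the higher ones, with Sesn2 at 4.87, 3.26 and 3.74 TPM at day 0 and 21.5, 26.9 and 41. TPM at day 14 and Sesn3 at 5.14, 5.2 and 5.28 TPM at day 0 and 37.4, 24. and 22.4 TPM at day 14. Ddit4, a brake on mTORC1 that HIF and ATF4 are both known to induce, went from 7.89 ± 7.19 to 82.5 ± 19.4 TPM. Sesn1 was not called (0.20). Kinase AMPK subunits Prkag1 and Prkag2 were lower (-0.56 and -0.42).

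Genes of the 2 main routes of protein breakdown moved in opposite directions. Autophagy genes were higher in 30 of 40 and lower in 0, with a median of 0.65 (24 higher and 2 lower under median-of-ratios scaling). Sqstm1, the cargo receptor p62, stood at 206, 167 and 159 TPM at day 0 and 642, 383 and 531 TPM at day 14, a log2 fold change of 1.52 with an SE of 0.19 (limma, adjusted p = 0.00025). Map1lc3b, which coats the autophagosome, stood at 118, 100.2 and 82.9 TPM at day 0 and 264, 266 and 276 TPM at day 14, and its relative Gabarapl1 went from 31.4 ± 6.28 to 111 ± 5.85 TPM. Wdr45, which acts on the growing membrane, went from 17.1 ± 1.51 to 74.1 ± 7.52 TPM. The conjugation enzymes Atg3, Atg5 and Atg7 were not called, with log2 fold changes of 0.05, -0.28 and 0.08. Lysosome genes had 25 higher and 3 lower members of 40, but 16 and 3 under median-of-ratios scaling. The enzymes Hexa and Ctsh were among the higher ones, going from 17.1 ± 1.27 to 56.4 ± 14.8 TPM and from 44.1 ± 3.02 to 136 ± 53.1 TPM, whereas Gusb was lower, going from 48.5 ± 4.71 to 25.9 ± 3.15 TPM. Tfeb, a master regulator of lysosome genes, was not called (-0.08), and the related Tfe3 was higher (0.57).

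Proteasome subunit genes were lower in 22 of 32 and higher in 0, with a median of -0.50. Under median-of-ratios scaling 28 were lower and 0 higher, and under quantile normalization 20 were lower and 2 higher. Psmb7, a catalytic subunit, stood at 355, 377 and 378 TPM at day 0 and 163, 160.2 and 205 TPM at day 14, a log2 fold change of -1.07 with an SE of 0.11 (limma, adjusted p = 7.8e-05). Psmd13, of the regulatory cap, stood at 146, 149.8 and 134 TPM at day 0 and 60.7, 68.7 and 72.7 TPM at day 14. With TPM as deposited, Psmc6 and Psmd8 were the only members with a log2 fold change above 0 (0.15 and 0.08), and neither was called.

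**Figure D3:**
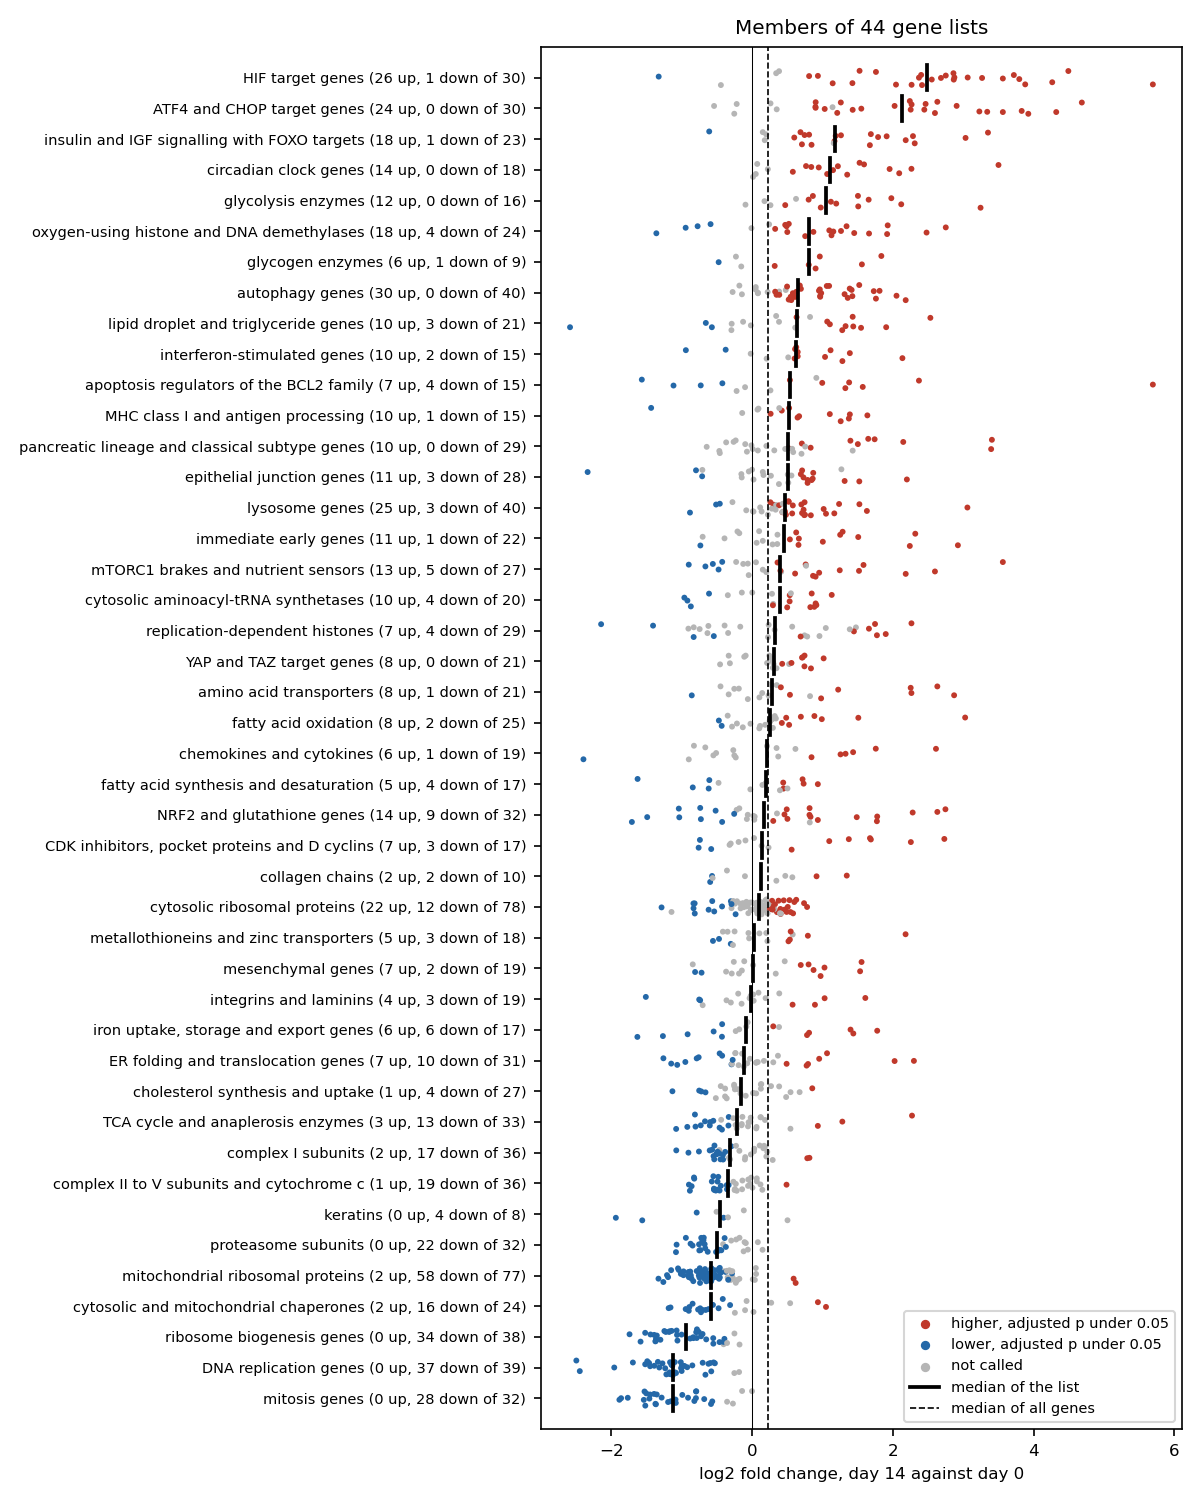
Log2 fold change at day 14 against day 0 of each tested member of the 44 lists, ordered by median. Each point is a gene, red where called higher, blue where called lower and grey where not called, thick bars are list medians and the dashed line is the median of all genes tested. HIF targets (median 2.49) and ATF4 and CHOP targets (2.13) stand at the top, and DNA replication and mitosis genes (-1.13 each) at the bottom.

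Among the mitochondrial lists, the translation machinery had the largest share of lower members. Mitochondrial ribosomal proteins were lower in 58 of 77 and higher in 2 (Mrps6 and Mrpl24), with a median of -0.58. Mrpl12 stood at 286, 327 and 310.1 TPM at day 0 and 136, 135 and 114 TPM at day 14, a log2 fold change of -1.26 with an SE of 0.10 (limma, adjusted p = 3.14e-05), and Mrpl18 and Mrpl20 went from 164 ± 8.88 to 64.5 ± 2.97 TPM and from 79. ± 1.56 to 34. ± 6.16 TPM. Subunits of complex I, the entry point of the respiratory chain, were lower in 17 and higher in 2 of 36, but in 23 and 2 under median-of-ratios scaling and in 9 and 4 under quantile normalization. Ndufs6 stood at 211, 211 and 166 TPM at day 0 and 78.2, 102 and 97.1 TPM at day 14, whereas Ndufa6 was higher, at 145, 171 and 136 TPM at day 0 and 306, 292 and 208 TPM at day 14. Complexes II to V with cytochrome c were lower in 19 and higher in 1 of 36 (27 and 0 under median-of-ratios scaling, 13 and 4 under quantile normalization), with Cycs, cytochrome c itself, going from 139.8 ± 8.4 to 76.6 ± 17.1 TPM and Ndufa4 from 865 ± 34.3 to 464 ± 22.4 TPM. The 1 higher member, Uqcrh, lost its call under median-of-ratios scaling (limma, adjusted p = 0.152).

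Enzymes of the TCA cycle and its side entries were lower in 13 and higher in 3 of 33 (19 and 3 under median-of-ratios scaling). Idh3a, the catalytic subunit of the NAD-dependent isocitrate dehydrogenase, stood at 63.7, 73.7 and 73.6 TPM at day 0 and 27.9, 35.9 and 34.9 TPM at day 14, a log2 fold change of -1.08 with an SE of 0.14 (limma, adjusted p = 0.000239). Citrate synthase Cs went from 197 ± 1.92 to 112 ± 7.89 TPM and fumarase Fh1 from 99.8 ± 10.2 to 52.4 ± 7.53 TPM. The 3 higher members sit at side entries and exits of the cycle. Gpt2, an alanine aminotransferase and ATF4 target, stood at 14.4, 11.9 and 12.3 TPM at day 0 and 57.4, 69.6 and 71.3 TPM at day 14. Pcx, pyruvate carboxylase, went from 12.1 ± 0.3 to 31.2 ± 6.02 TPM, and the malic enzyme Me1 from 134 ± 3.31 to 257 ± 15.1 TPM.

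Lipid genes moved in different directions. Their counts are to be read against the 36.2% of all genes tested that were higher and the 18.8% that were lower. Cholesterol synthesis and uptake genes were called in 5 of 27 (1 higher, Insig2, and 4 lower, among them Acat2 and Mvk; 2 higher and 3 lower under quantile normalization), against 55.1% of all genes. Acat2 lost its call under quantile normalization (limma, adjusted p = 0.0576), with no filter on low values, with the 20 most abundant rows removed, and without replicate 1 or 2 of day 0, replicate 3 of day 2 or any 1 of the day 14 samples (limma, adjusted p up to 0.127). In fatty acid synthesis, 5 of 17 were higher and 4 lower (3 and 5 under median-of-ratios scaling). Fasn, fatty acid synthase, went from 101 ± 3.85 to 66.3 ± 9.8 TPM and the elongase Elovl6 from 24.3 ± 3.33 to 7.25 ± 1.6 TPM, while the desaturase Scd2, an enzyme that uses oxygen, went up from 349 ± 105 to 566 ± 34.4 TPM. Lipid droplet genes had 10 higher and 3 lower members of 21 (10 and 6 under median-of-ratios scaling). The lipins, which make diacylglycerol, were all higher, with log2 fold changes of 1.55 for Lpin1, 1.43 for Lpin2 and 1.07 for Lpin3. Cidec, a droplet fusion protein, went from 6.31 ± 0.505 to 17.4 ± 1.78 TPM, and Plin2, the main droplet coat protein of many cells, was not called (-0.29). Fatty acid oxidation genes were called in 10 of 25, 8 higher and 2 lower (4 and 4 under median-of-ratios scaling). That was 40% called, below the 55.1% of all genes. Acot2, which cleaves acyl-CoA in mitochondria, went from 1.7 ± 0.448 to 20.9 ± 2.39 TPM, but Cpt1a, which admits fatty acids to mitochondria, was not called (-0.13).

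NRF2 and glutathione genes had 14 higher and 9 lower members of 32 (10 and 11 under median-of-ratios scaling). Among the higher members, Gstm1, a glutathione transferase, stood at 49.7, 45.5 and 52.4 TPM at day 0 and 327, 335 and 131 TPM at day 14, Gsta4 at 159, 118 and 151 TPM at day 0 and 651, 654 and 270.1 TPM at day 14 and the heme oxygenase Hmox1 at 36.8, 22. and 22.6 TPM at day 0 and 102, 61.6 and 127 TPM at day 14. Among the lower members, G6pdx, the entry enzyme of the pentose phosphate pathway, stood at 52., 49.8 and 43.2 TPM at day 0 and 12.3, 15. and 15. TPM at day 14, a log2 fold change of -1.71 with an SE of 0.15 (limma, adjusted p = 4.65e-05). Thioredoxin Txn1 stood at 492, 471 and 451 TPM at day 0 and 149, 184 and 169.7 TPM at day 14, and glutathione reductase Gsr went from 272 ± 26. to 132 ± 12.2 TPM. Among iron genes 6 were higher and 6 lower of 17 (4 and 7 under median-of-ratios scaling, 3 and 6 under quantile normalization). Tfrc, the transferrin receptor, stood at 179, 228 and 231 TPM at day 0 and 58.1, 97.6 and 54.2 TPM at day 14, a log2 fold change of -1.63 with an SE of 0.23 (limma, adjusted p = 0.000432), and Slc11a2, the importer of free iron, went from 25. ± 0.974 to 13. ± 3.25 TPM. Ncoa4, the receptor that delivers ferritin to autophagy, went up from 48.4 ± 3.36 to 132 ± 35. TPM. Metallothioneins and zinc transporters were called in 8 of 18, 5 higher and 3 lower (3 and 7 under median-of-ratios scaling, 2 and 6 under quantile normalization), with Mt2 going from 120.1 ± 16.5 to 599 ± 331 TPM and Mt1 not called (0.58).

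Genes of cell division were lower almost throughout. DNA replication genes were lower in 37 of 39 and higher in 0, with a median of -1.13, and mitosis genes were lower in 28 of 32 and higher in 0, also with a median of -1.13. The lower counts were 39 and 30 under median-of-ratios scaling and 37 and 27 under quantile normalization. Among the licensing factors, Mcm5, a subunit of the replicative helicase, stood at 121, 132 and 143 TPM at day 0 and 50.7, 41.7 and 46.7 TPM at day 14, a log2 fold change of -1.49 with an SE of 0.12 (limma, adjusted p = 3.37e-05). Gins1, of the helicase's partner complex, stood at 58.5, 55.7 and 56.5 TPM at day 0 and 12.5, 13.4 and 15.9 TPM at day 14. The cyclin gene Ccne1 went from 31.3 ± 6.22 to 9.56 ± 4.29 TPM. Cdca3 stood at 142, 163 and 169.6 TPM at day 0 and 48.6, 36.7 and 41.2 TPM at day 14, Birc5, also called survivin, at 210.2, 229 and 246 TPM at day 0 and 60.8, 54.6 and 71.8 TPM at day 14 and the proliferation marker Mki67 at 50.7, 63.2 and 69.3 TPM at day 0 and 40.3, 28.3 and 35.7 TPM at day 14. At day 2 Cdca3 stood at 4.4, 5.73 and 4.73 TPM and Birc5 at 3.52, 6.03 and 4.64 TPM, so both were higher at day 14 than at day 2, with a log2 difference of 2.86 from day 2 (limma, adjusted p = 8.81e-06) for Cdca3 and of 3.48 (limma, adjusted p = 8.81e-06) for Birc5. Pttg1, Nusap1, Prc1 and Ndc80 were not called, with log2 fold changes of -0.00072, -0.14, -0.27 and -0.35. The replication members not called were E2f1 and Gins4 (-0.18 and -0.25).

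Promoters of these groups are shown for Cdca3 and Mcm5. In Cdca3, on the plus strand at chr6:124829926-124830225 (GRCm38.p6, RefSeq), capitals mark TTTGAA, the core of the cell cycle homology region that represses such genes in resting cells. In Mcm5, on the plus strand at chr8:75109259-75109558 (same build and source), capitals mark a pair of overlapping matches to TTTNNCGC, an E2F site, on opposite strands.
Cdca3 promoter: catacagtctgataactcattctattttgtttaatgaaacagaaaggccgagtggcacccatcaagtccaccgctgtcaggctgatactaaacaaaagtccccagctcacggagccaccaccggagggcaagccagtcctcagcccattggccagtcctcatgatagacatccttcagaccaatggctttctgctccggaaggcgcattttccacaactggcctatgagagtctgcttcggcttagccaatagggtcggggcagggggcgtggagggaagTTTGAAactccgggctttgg
Mcm5 promoter: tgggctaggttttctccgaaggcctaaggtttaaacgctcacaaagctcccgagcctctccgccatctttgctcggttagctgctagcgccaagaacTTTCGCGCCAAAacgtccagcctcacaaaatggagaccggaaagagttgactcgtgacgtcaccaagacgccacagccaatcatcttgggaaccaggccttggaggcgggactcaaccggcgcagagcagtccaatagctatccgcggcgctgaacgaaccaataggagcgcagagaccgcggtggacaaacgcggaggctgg

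Each motif was counted on both strands of the 300-base windows, available for 9710 of the 12693 genes tested. A gene counted where any of its windows held the motif, and 4163 genes of the promoter table had more than 1 window. ACGTG occurred in 18 of 25 HIF targets (72.0%), 29.5% of all genes tested, 21.8% of all genes in the promoter table and 26.4% of genes that rose at least 2-fold. With only the first window of each gene, it occurred in 14 of 25 HIF targets (56.0%) and 26.2% of all genes tested. TGATGNAA occurred in 9 of 26 ATF4 and CHOP targets (34.6%), 2.71% of all genes tested, 4.51% of all genes in the table and 4.28% of genes that rose at least 2-fold. TTTGAA occurred in 19 of 27 mitosis genes (70.4%), 14.2% of all genes tested, 20.2% of all genes in the table and 19.3% of genes that fell at least 2-fold. TTTNNCGC occurred in 15 of 31 DNA replication genes (48.4%), 9.87% of all genes tested, 5.93% of all genes in the table and 14.2% of genes that fell at least 2-fold. CCAAT, the NF-Y site, occurred in 20 of 27 mitosis genes (74.1%), 18 of 26 ATF4 and CHOP targets (69.2%), 18 of 31 DNA replication genes (58.1%), 11 of 25 HIF targets (44%) and 43.3% of all genes tested. None of the 5 motifs contains another. A match is a run of letters and not a measured binding site. The lists hold mostly textbook targets of these factors, with exceptions such as Anxa8, and were chosen with earlier results of these data known.

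**Figure D4:**
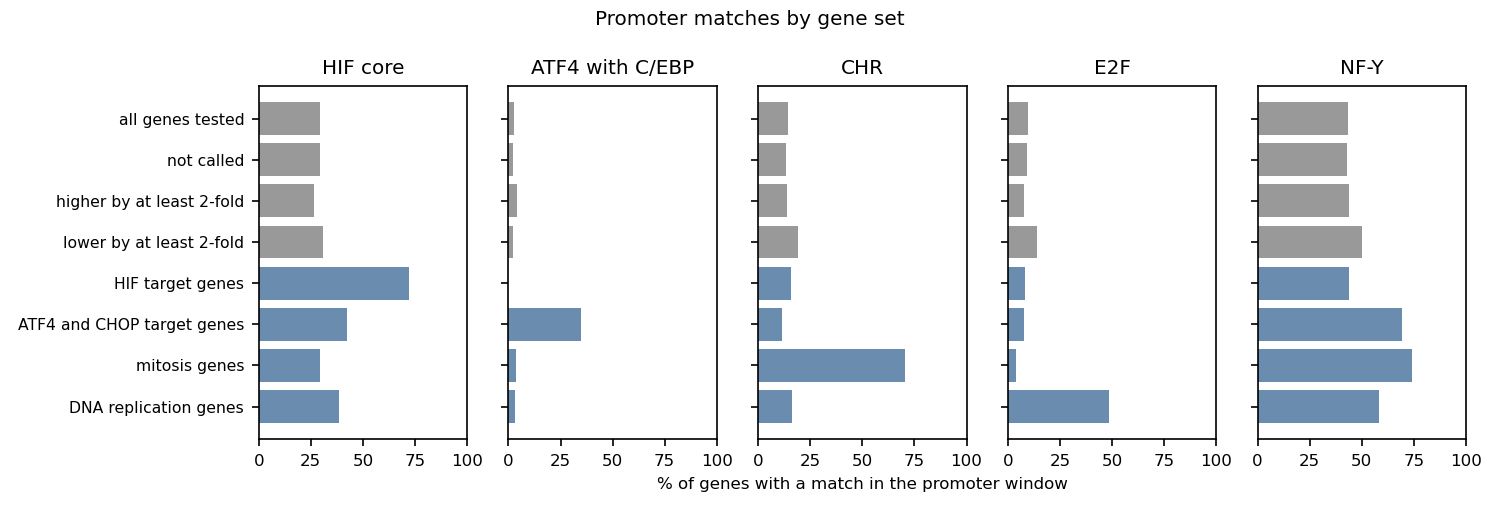
Share of genes with a motif in any of their promoter windows (horizontal axes, 0 to 100%) for 5 motifs and 8 sets of genes. Grey bars are sets defined by the comparison, blue bars are gene lists. ACGTG stands at 72.0% in HIF targets, 26.4% in genes that rose at least 2-fold and 29.5% in all genes tested.

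Genes that control entry into the cell cycle went both ways. Of the CDK inhibitors, pocket proteins and D cyclins, 7 were higher and 3 lower of 17 (7 and 5 under median-of-ratios scaling), while 36.2% of all genes tested were higher. Cdkn1a, which encodes the CDK inhibitor p21, stood at 4.81, 5.34 and 4.1 TPM at day 0 and 40., 30. and 42.4 TPM at day 14, a log2 fold change of 2.73 with an SE of 0.19 (limma, adjusted p = 1.76e-05). Cdkn1c, a related inhibitor, stood at 1.05, 0.78 and 0.733 TPM at day 0 and 12.3, 5.91 and 6.49 TPM at day 14, and the pocket protein Rbl2, which represses cell cycle genes in resting cells, went from 9.02 ± 0.658 to 25.3 ± 5.24 TPM. The CDK inhibitor Cdkn2c and the pocket protein Rbl1 were lower, going from 45.7 ± 2.19 to 26.6 ± 1.23 TPM and from 20.5 ± 5.0 to 11.7 ± 1.84 TPM, with the call of Rbl1 lost without replicate 3 of day 0 or replicate 2 of day 14 (limma, adjusted p up to 0.0699). Cdkn2a was not called and stood at 497, 433 and 393 TPM at day 0 and 405, 451 and 615 TPM at day 14. The cyclin Ccnd2 was higher, from 82.7 ± 3.99 to 269 ± 44.9 TPM, and Ccnd1 was not called (-0.30). Replication-dependent histone genes had 7 higher and 4 lower members of 29 (6 and 6 under median-of-ratios scaling, 6 and 7 under quantile normalization), so they gave no common direction. Their mRNAs mostly lack a poly(A) tail and their copies are near-identical, so single values are uncertain.

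Ribosome biogenesis genes were lower in 34 of 38 and higher in 0, with a median of -0.94 (37 under median-of-ratios scaling and 34 under quantile normalization). Nhp2, a protein of the small RNA particles that modify ribosomal RNA, stood at 390.0, 396 and 418 TPM at day 0 and 99.1, 133 and 128 TPM at day 14, a log2 fold change of -1.74 with an SE of 0.15 (limma, adjusted p = 4.79e-05). Nucleolin, Ncl, stood at 305, 376 and 370.4 TPM at day 0 and 142, 154 and 178 TPM at day 14 and nucleophosmin, Npm1, at 1604, 1779 and 1812 TPM at day 0 and 989.8, 943 and 979 TPM at day 14. Noc4l and Rrs1, assembly factors, went from 70.6 ± 4.36 to 23. ± 2.9 TPM and from 108 ± 10.1 to 37.2 ± 3.58 TPM. The ribosomal proteins themselves gave no common direction. With TPM as deposited 22 of 78 were higher and 12 lower, with a median of 0.10, and under median-of-ratios scaling 8 were higher and 22 lower. Rps2 stood at 7843, 6385 and 5799.9 TPM at day 0 and 3751, 3723 and 3678 TPM at day 14 and Rpl39 at 1439.7, 1490.2 and 1268 TPM at day 0 and 2029, 2849 and 2394 TPM at day 14. Ribosomal protein genes have many near-identical pseudogenes, and single values are uncertain for that reason.

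Chaperones were lower in 16 and higher in 2 of 24 (17 and 0 under median-of-ratios scaling), with a median of -0.59. Both higher members, Hspb1 and Hspa1a, lost their calls under median-of-ratios scaling (limma, adjusted p = 0.0549 and 0.138). Hspb1 also lost its call without replicate 3 of day 0 or replicate 1 of day 14, and Hspa1a under quantile normalization (limma, adjusted p = 0.17), with no filter on low values, with the 20 most abundant rows removed, with no variance trend, and without replicate 2 or 3 of day 0, replicate 3 of day 2 or any 1 of the day 14 samples. The mitochondrial pair Hspd1 and Hspe1, which fold imported proteins together, stood at 801, 888 and 915 TPM at day 0 and 339.6, 390.1 and 416 TPM at day 14 for Hspd1 and 566, 596 and 577 TPM at day 0 and 259.9, 263 and 254 TPM at day 14 for Hspe1. Cct8, of the cytosolic chaperonin, went from 346 ± 10.9 to 179.9 ± 14.7 TPM, and Hspa8, the constitutive cytosolic chaperone, from 2437 ± 82.2 to 1505 ± 205 TPM. In the endoplasmic reticulum list 7 were higher and 10 lower of 31 (6 and 15 under median-of-ratios scaling, 10 and 9 under quantile normalization). Among the higher members, Dnajb9 went from 5.78 ± 0.236 to 32.4 ± 2.4 TPM, Herpud1 from 48.2 ± 10.4 to 197 ± 17.4 TPM and Xbp1 from 18.7 ± 5.5 to 40.7 ± 13.8 TPM. Among the lower ones, Sec61b, a subunit of the translocation channel, went from 181 ± 18.8 to 75.2 ± 8.36 TPM and Creld2 from 71.5 ± 4.15 to 31.7 ± 2.34 TPM. Hspa5, the main chaperone of the compartment, was not called (0.37).

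Markers of epithelial identity changed in parts. Keratins were lower in 4 and higher in 0 of 8. Krt7, a ductal keratin, stood at 1561, 1434 and 1545 TPM at day 0 and 511, 457 and 574 TPM at day 14, a log2 fold change of -1.56 with an SE of 0.10 (limma, adjusted p = 1.2e-05), while Krt19 was not called and stood at 2815, 2527 and 2643 TPM at day 0 and 2597, 1933 and 1840.3 TPM at day 14. Of the epithelial junction genes 11 were higher and 3 lower of 28, but 10 and 5 under median-of-ratios scaling and 4 and 6 under quantile normalization. With TPM as deposited, 36.2% of all genes tested were higher and 18.8% lower, so the share of higher members was near that of all genes. Epcam, an adhesion protein, stood at 1.54, 2.8 and 2.35 TPM at day 0 and 10.9, 19.8 and 11.8 TPM at day 14, and Cdh1, or E-cadherin, at 247, 224 and 248 TPM at day 0 and 428, 409 and 360.4 TPM at day 14. Mesenchymal genes had 7 higher and 2 lower members of 19 (6 and 3 under median-of-ratios scaling, 4 and 4 under quantile normalization), while 36.2% of all genes tested were higher and 18.8% lower. Fibronectin, Fn1, stood at 60.3, 94.1 and 118 TPM at day 0 and 222, 277 and 283 TPM at day 14, but Zeb1, Twist1 and Cdh2 were not called (0.34, -0.15 and -0.29). The 2 lower members were Vim and Mmp14 (log2 fold changes -0.72 and -0.81). Vim, which encodes vimentin, went from 2462 ± 226 to 1546 ± 504 TPM, a call lost without 1 sample (limma, adjusted p up to 0.0853). Mmp14 went from 81.9 ± 7.3 to 47.0 ± 10.8 TPM. Collagen chains were called in 4 of 10 (Col4a5 and Col5a1 higher, Col4a1 and Col4a2 lower, with the call of Col5a1 lost under quantile normalization and 4 higher and 2 lower with the 20 most abundant rows removed), with Col4a1 going from 156 ± 5.3 to 105 ± 5.22 TPM. Of the integrins and laminins 4 were higher and 3 lower of 19 (4 and 5 under median-of-ratios scaling, 4 and 6 under quantile normalization). Itga6, a laminin receptor, stood at 86.7, 97.5 and 105 TPM at day 0 and 32.2, 29.8 and 37.6 TPM at day 14.

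Pancreatic lineage and classical subtype genes were called higher in 10 of 29 and lower in 0 (8 and 2 under median-of-ratios scaling, 8 and 1 under quantile normalization), and the 2 with the largest rises were gastric-type secretory genes. Tff2, a trefoil peptide of stomach mucus, stood at 0.289, 0.216 and 0.963 TPM at day 0 and 38.2, 24.1 and 2.75 TPM at day 14, a log2 fold change of 3.41 with an SE of 0.75 (limma, adjusted p = 0.00438). Muc5ac, a gel-forming mucin, stood at 0.715, 1.19 and 4.36 TPM at day 0 and 64.4, 33.7 and 9.36 TPM at day 14. In both, replicate 3 was the lowest of the 3 day 14 samples, and no value overlapped day 0. Sox9, a ductal transcription factor, went from 8.48 ± 1.6 to 26.3 ± 7.72 TPM. The transcription factors Pdx1, Gata6 and Hnf4a were not called, with log2 fold changes of -0.37, 0.32 and 0.01. YAP and TAZ targets were higher in 8 of 21 and lower in 0 (4 and 2 under median-of-ratios scaling, 5 and 1 under quantile normalization), with Ctgf going from 173 ± 28.4 to 310.0 ± 55.7 TPM and Ankrd1 and Cyr61 not called (0.25 and 0.35). The share of higher members was 34.5% in the lineage list and 38.1% in the YAP and TAZ list, near the 36.2% of all genes tested. Among all genes tested 18.8% were lower.

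Circadian clock genes were higher in 14 of 18 and lower in 0, with a median of 1.11 (13 higher and 0 lower under median-of-ratios scaling, 14 and 0 under quantile normalization). The output gene Dbp stood at 5.38, 6.57 and 6.82 TPM at day 0 and 42.8, 42.2 and 14.5 TPM at day 14, a log2 fold change of 2.09 with an SE of 0.39 (limma, adjusted p = 0.0019). The repressors Cry2 and Per3 went from 3.35 ± 0.142 to 15.9 ± 0.863 TPM and from 2.44 ± 0.171 to 9.49 ± 2.07 TPM. Arntl, the partner of Clock, went from 6.06 ± 1.75 to 12.3 ± 0.43 TPM, whereas Clock itself was not called (0.01). The hour of collection is not given in the labels, and its part in these values was not tested. Histone and DNA demethylases that use oxygen were higher in 18 and lower in 4 of 24. Kdm3a, a HIF target, stood at 18.6, 16.3 and 16. TPM at day 0 and 168, 93.8 and 109 TPM at day 14 and Kdm5b went from 9.51 ± 0.125 to 39.1 ± 4.02 TPM, while Kdm8 was lower, from 11.7 ± 0.785 to 3.97 ± 0.528 TPM.

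Of the 22 immediate early genes tested, 11 were called higher and 1 lower (7 and 2 under median-of-ratios scaling). Egr1 stood at 4.7, 3.15 and 3.43 TPM at day 0 and 19.1, 37.8 and 57.8 TPM at day 14 and Dusp1, a phosphatase of MAP kinases, at 17.9, 17.4 and 13.5 TPM at day 0 and 83.8, 61.7 and 117 TPM at day 14. Among BCL2 family genes, 7 were higher and 4 lower of 15 (7 and 6 under median-of-ratios scaling). Pro-death members went both ways. Bbc3 and Pmaip1, which respond to stress, went up from 4.83 ± 2.12 to 15.8 ± 2.53 TPM and from 18.5 ± 0.771 to 51. ± 14. TPM, while the pore-forming Bak1 and Bax went down from 80.2 ± 2.67 to 26.4 ± 1.25 TPM and from 212 ± 49. to 126 ± 12.3 TPM. The survival gene Mcl1 was not called (0.26).

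Many immune genes stayed under the minimum level. Interferon-stimulated genes were tested in 15 of 32, of which 10 were higher and 2 lower (4 and 3 under quantile normalization). Irf7, Ifit3 and Xaf1 were under 1 TPM in every day 0 sample, so they passed the filter only through later samples. Among all genes tested 36.2% were higher, and 51.7% among those below a mean of 5 TPM. Irf7, an interferon regulator, stood at 0.448, 0.733 and 0.819 TPM at day 0 and 7.32, 6.71 and 5.05 TPM at day 14, while the antiviral tether Bst2 went down from 90.7 ± 9.97 to 46.6 ± 2.13 TPM. Of the MHC class I and antigen processing genes 10 were higher and 1 lower of 15 (6 and 1 under median-of-ratios scaling). Tapbp, which loads peptides, stood at 23.6, 23. and 18.6 TPM at day 0 and 67., 62.1 and 47.5 TPM at day 14, and H2-T23 went from 24. ± 1.03 to 59.7 ± 12. TPM, whereas the proteasome subunit Psmb10 went down from 50.2 ± 1.46 to 18.2 ± 4.13 TPM. Among chemokines and cytokines 6 were higher and 1 lower of 19 (4 and 4 under median-of-ratios scaling, 3 and 6 under quantile normalization). Ccl20 stood at 9.19, 4.52 and 2.95 TPM at day 0 and 44.1, 35.6 and 29.9 TPM at day 14, and Ccl2, which attracts monocytes, stood at 7.68, 6.36 and 6.26 TPM at day 0 and 0.294, 0.715 and 0.433 TPM at day 14.

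**Figure D5:**
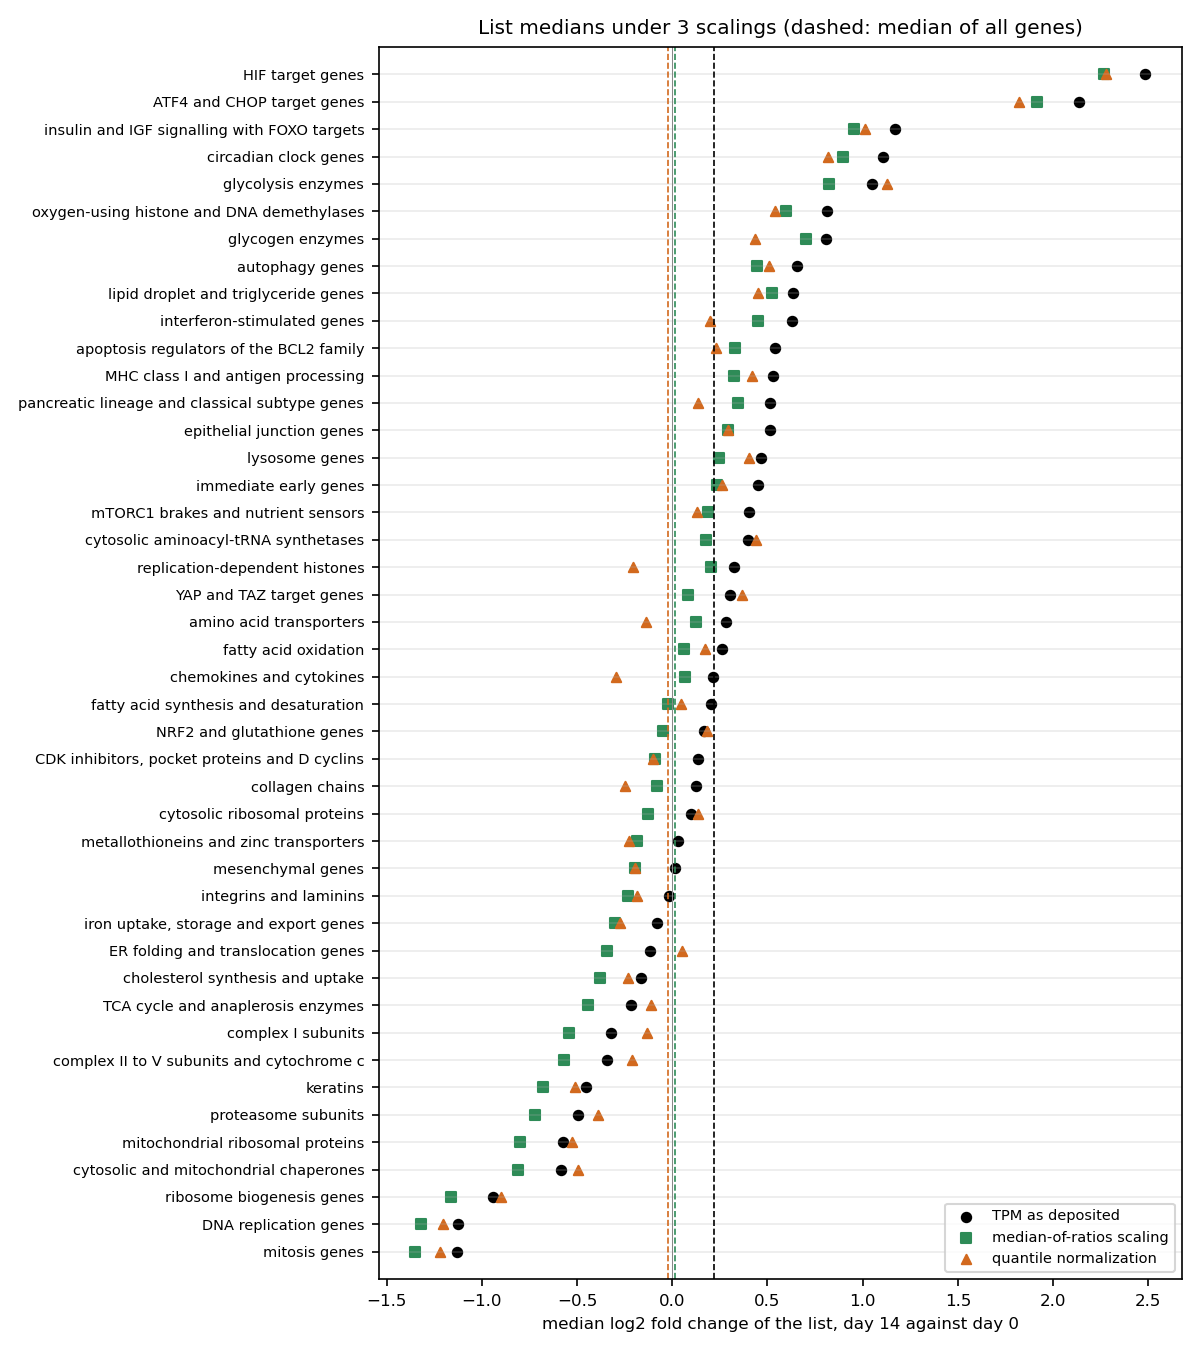
Median log2 fold change of each of the 44 lists at day 14 against day 0 (horizontal axis) under TPM as deposited (black circles), median-of-ratios scaling (green squares) and quantile normalization (orange triangles). Dashed lines of the same colors mark the median of all genes, 0.22, 0.02 and -0.02. Lists near the middle, such as cytosolic ribosomal proteins (0.10 and -0.13 under the first 2 scalings), change sign, while HIF target genes (2.48, 2.27 and 2.28) and mitosis genes (-1.13, -1.35 and -1.22) keep theirs.

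The samples of day 14 differed more among themselves than those of day 0. The median SD of a gene's log2 values was 0.182 at day 14 and 0.119 at day 0. In 1000 genes the 3 day 14 values ranged over more than 2-fold, against 376 genes at day 0. Of those 1000 genes, 486 were highest in replicate 1 and 402 lowest in replicate 3. No label tells these samples apart other than by number.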

How the data were processed

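RNA was extracted with a Qiagen kit and libraries were made by Novogene, per the labels' protocols. The authors quantified genes with Salmon, per the submitters' processing notes, and deposited one table of TPM values scaled within each sample. Which Salmon version, index, genome build and annotation were used is not given in the sources used here, nor are read counts, so the depth is unknown. Columns were matched to samples by day and number. The prefix WT in the column names is not explained there.

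Here, log2(TPM + 1) was fitted with limma 3.58.1 for genes reaching 1 TPM in 3 or more samples (R 4.3.3, variance trend, all 9 samples, no covariate). P-values were adjusted by the Benjamini-Hochberg method over all 12693 genes, with a threshold of 0.05. Fold changes are on the log2(TPM + 1) scale and understate those of low genes. The fit was tested on simulated data. The lists, the comparison and the rule for named genes (per list, the 3 largest called rises and falls, or all where at most 5 were called) were chosen with earlier results of these data known, and other genes were named after their values were seen. Promoters came from a RefSeq table (GRCm38.p6), matched by symbol. Printed promoters are of the member of each list with the largest change whose window held the motif. Rows of predicted genes, microRNAs, small nucleolar and ribosomal RNAs were not named, and a few genes that the rule chose are not reported here. Figures used matplotlib 3.10.9.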

Additional observations from a re-analysis of the deposited data

Results flagged for a closer look

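These genes are listed because limma's test of day 14 against day 2 found a difference, so that the change from day 0 was not the same at both times. Values are log2 differences, day 14 minus day 2, and the adjusted p-values are limma's over all genes tested. Among the 15 genes with the largest rises at day 14 against day 0, those higher at day 14 than at day 2 were Car9 (0.83, adjusted p = 0.0145), Pdzk1ip1 (4.14, adjusted p = 0.000138), Nupr1 (1.19, adjusted p = 0.00179) and Aldh1a1 (3.58, adjusted p = 1.49e-05). Sprr4 was listed at 0 in every day 0 and day 2 sample, so no difference is given for it. Those lower at day 14 than at day 2 were Bnip3 (-0.92, adjusted p = 0.00709), Ankrd37 (-0.77, adjusted p = 0.0446), Egln3 (-0.51, adjusted p = 0.0282) and Adm (-2.37, adjusted p = 0.0331).

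Among 14 genes with the largest falls, those lower still at day 14 than at day 2 were Wfdc2 (-3.52, adjusted p = 5.88e-06), Fabp5 (-0.88, adjusted p = 0.0078), Sparc (-1.18, adjusted p = 0.00084) and Aif1l (-1.24, adjusted p = 0.0181). Those higher at day 14 than at day 2 were Il5ra (1.82, adjusted p = 0.00213), Pcolce2 (1.71, adjusted p = 0.00064), Mybl2 (1.86, adjusted p = 3.42e-05), Rrm2 (2.58, adjusted p = 0.000103), Hist1h4i (0.35, adjusted p = 0.0376), Cad (0.74, adjusted p = 0.0363) and Lyar (0.65, adjusted p = 0.016). Wfdc2 had the largest further fall and Rrm2 the largest recovery toward day 0 of these 14. Groups of 3 samples were too small for a check of single outlying values.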

How the results depend on the processing

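The alternatives were a pseudocount of 0.1 or 5, no filter on low values or a mean of at least 5 TPM, 3 other scalings, the 6 samples of day 0 and day 14 alone, no variance trend, a replicate block, and each of the 9 samples left out. Counts over all genes tested that moved by more than 1.5 times were as follows. Genes called higher numbered 2843 under quantile normalization, and genes called lower 3651 under median-of-ratios scaling. Genes higher by at least 2-fold numbered 700 with a pseudocount of 5, 1089 with a mean of at least 5 TPM and 875 under quantile normalization. Genes lower by at least 2-fold numbered 395 with a pseudocount of 5 and 982 under median-of-ratios scaling. Without 1 sample, genes called higher ranged from 3803 to 4744 and genes called lower from 1836 to 2554, and those of at least 2-fold from 1668 to 1803 and from 554 to 668. Of 88 counts of list members called higher or lower, 46 moved by more than 1.5 times under at least 1 alternative, 29 of which were 5 or fewer with TPM as deposited. These were 150 of 1672 values, with 28 under median-of-ratios scaling, 30 under quantile normalization and 61 without 1 sample. The share of called genes that were higher was 71.9% with no filter and 59.1% with a mean of at least 5 TPM.

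Replicate numbers do not pair the samples by any label. Deviations of same-numbered samples from their day's mean correlated between -0.0709 and 0.318. With the number as a replicate block, 4673 genes were higher and 2443 lower, 1731 and 610 of them by at least 2-fold.

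Of 5785 values of single genes (218 chosen by the rule and 88 others named in the text), 5592 kept their direction and their side of the threshold, 123 lost and 40 gained a call, and 30 changed sign, all in genes that were not called. Under median-of-ratios scaling, log2 fold changes of the other sign were Atg3 -0.17, Atg7 -0.13, Cdkn2a -0.090, Clock -0.20, Hnf4a -0.21, Pkm -0.049, Psmc6 -0.075 and Psmd8 -0.14. Under quantile normalization, log2 fold changes of the other sign were Atg3 -0.015, Atg7 -0.15, Clock -0.27, Pfkfb4 -0.25 and Sesn1 -0.35. With the 20 most abundant rows removed, log2 fold changes of the other sign were Pttg1 0.041. Over the fits without 1 sample, log2 fold changes ranged across 0 for Ankrd1 (-0.18 to 0.63), Atg3 (-0.028 to 0.16), Atg7 (-0.0038 to 0.18), Cdkn2a (-0.039 to 0.26), Clock (-0.083 to 0.11), Cpt1a (-0.37 to 0.15), Hnf4a (-0.17 to 0.10), Nusap1 (-0.24 to 0.046), Pttg1 (-0.066 to 0.10), Shmt2 (-0.41 to 0.018), Tfeb (-0.23 to 0.071) and Twist1 (-0.36 to 0.024). Genes not called with TPM as deposited but called under median-of-ratios scaling were Atg5 (-0.49), Car12 (-0.62), E2f1 (-0.40), Gapdh (-0.32), Gins4 (-0.47), Krt19 (-0.57), Ndc80 (-0.57), Phgdh (-0.77), Plin2 (-0.51) and Prc1 (-0.50). Depth is unknown from TPM, and the precision is set by 3 samples a day.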
